A study of Homo sapiens with 12 samples.

Results

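Long noncoding RNA genes are described here in HK-2, an immortalised cell line from the human proximal tubule, after exposure to a compound that the labels call Di. The members were chosen by name and by measured level. A gene belonged to the set when its symbol started with LINC or SNHG and a number, ended in -AS or -IT and a number, started with MIR and ended in HG, or was MALAT1, NEAT1, GAS5, H19, MEG3 or LOC100190986, and when a probe set of it exceeded 4 on the log2 scale on 3 or more of the 12 arrays. Of 1699 genes with such a symbol and a probe set that lists 1 gene, 193 met the level rule, among 10626 genes of all kinds that met it, and 1506 did not. Probe sets that list several genes were not used. Another 46 genes with such a symbol, SNHG genes among them, met the level rule only on those and are not members. The 193 were 122 antisense genes, 58 intergenic genes (LINC symbols and LOC100190986), 6 host genes of small nucleolar RNAs, 5 host genes of microRNAs, 1 intronic gene and MALAT1. At the edge of the rule, the third-highest array read 4.04 for PRKCQ-AS1 and MICA-AS1 and 4.05 for TDH-AS1, all just inside. It read 3.99 for GOLGA4-AS1 and 3.95 for LINC00886 and GATA6-AS1, all just outside.

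The 4 groups of 3 biological replicates were cells given Di and cells given vehicle, each collected at 12 h and at 48 h. All cells had been plated in 6-well dishes 24 h earlier and were near 90% confluent when treatment began. They grew in a defined medium with epidermal growth factor, hydrocortisone, insulin, transferrin and selenite. The identity and the dose of Di are not given in the sources used here. All arrays come from 1 immortalised line, and a bulk array cannot tell fewer cells that carry an RNA from less RNA per cell.

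Long noncoding RNAs are transcripts without a recognised protein product. Some work in place at the gene they overlap, some act on nuclear structures, and some mainly carry small RNAs in their introns or exons: the snoRNA host genes release the guides for ribosomal RNA modification, and the microRNA host genes release microRNA hairpins. Many are spliced inefficiently, decay quickly or stay in the nucleus, so their level can move without a change in transcription of the neighbouring gene.

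Of the 6 epithelial markers checked, all passed the level rule, with KRT18, KRT8 and EPCAM bright on every array. None of the 10 markers of mature proximal tubule, LRP2, CUBN and AQP1 among them, passed it, and the 8 with a probe set had a mean over the list of 2.71 to 2.96 on every array. The endothelial and leukocyte lists were likewise without a marker above the floor, and AQP2 was the 1 measured of 6 markers of other nephron segments. Of the fibroblast list, COL1A1, DCN and LUM were measured, and the mean over its 6 markers was 6.18 to 6.21 in control and 6.05 to 6.18 in Di at 12 h, and 5.69 to 5.72 in control and 5.35 to 5.47 in Di at 48 h. DCN and LUM were bright, at means of 11.05 and 9.39 in control at 12 h. With Di at 48 h DCN changed by -1.01 ± 0.0854 and LUM by -0.72 ± 0.23, both called, and COL1A1 by -0.16 ± 0.189 without a call. Without Di all 3 were called lower at 48 h than at 12 h. The epithelial mean was 10.26 to 10.38 in control and 9.78 to 9.92 in Di at 48 h, where CDH1 fell by 1.33 ± 0.266, KRT19 by 1.19 ± 0.064 and EPCAM by 0.65 ± 0.164 (log2 change ± SE). KRT18 rose there by 0.20 ± 0.0762, and KRT7 and KRT8 changed by 0.11 ± 0.14 and 0.13 ± 0.0927 without a call. The part of these marker shifts in the results below was not tested. Over the long noncoding RNAs, the root mean square distance of an array from its group mean was 0.311 (log2) for replicate 2 of Di at 12 h and 0.153 to 0.282 for the rest.

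The sequences of some members help to read the results. Promoters are shown for LINC00304 and MIR4435-2HG, which lay above the floor in Di at 48 h alone, and for LINC01234, which rose there. They are RefSeq windows of 300 bases on GRCh38.p14, from 250 bases before the annotated start, with capitals marking any match to TGACNNNGC, the core of the antioxidant response element, or to TGANTCA, the AP-1 site, on either strand.

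LINC00304, chr16:89158970-89159269, plus strand: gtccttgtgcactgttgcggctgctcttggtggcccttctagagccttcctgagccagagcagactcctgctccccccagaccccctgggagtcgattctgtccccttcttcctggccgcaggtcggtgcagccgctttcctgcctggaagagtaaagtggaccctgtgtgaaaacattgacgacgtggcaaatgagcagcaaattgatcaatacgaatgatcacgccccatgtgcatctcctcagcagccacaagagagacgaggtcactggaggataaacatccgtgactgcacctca
MIR4435-2HG, chr2:111495112-111495411, minus strand: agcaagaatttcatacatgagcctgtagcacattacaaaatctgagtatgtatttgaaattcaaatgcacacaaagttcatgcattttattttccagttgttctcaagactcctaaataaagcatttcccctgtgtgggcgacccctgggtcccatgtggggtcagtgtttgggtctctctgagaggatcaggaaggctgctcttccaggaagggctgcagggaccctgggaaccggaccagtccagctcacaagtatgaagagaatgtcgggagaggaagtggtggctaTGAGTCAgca
LINC01234, chr12:113773634-113773933, minus strand: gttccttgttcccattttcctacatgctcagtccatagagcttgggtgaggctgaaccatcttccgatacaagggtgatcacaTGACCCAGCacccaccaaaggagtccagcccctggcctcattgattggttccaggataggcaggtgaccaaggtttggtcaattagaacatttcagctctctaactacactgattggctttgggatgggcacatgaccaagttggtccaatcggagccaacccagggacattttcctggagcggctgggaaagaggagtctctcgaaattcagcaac

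The MIR4435-2HG window held 1 AP-1 match, starting 41 bases into the transcript, and the LINC01234 window 1 antioxidant-type match, at position -167 from the start. The LINC00304 window held neither set of letters. Of the 144 members with a promoter in the table, 28 (19.4%) held the antioxidant core, against 13.6% of all 27305 promoters, and 12 (8.33%) held the AP-1 letters, against 7.76%. Among members called higher with Di at 48 h, 2 of 10 promoters held each motif. They were LINC01234 and LINC00869 for the antioxidant core and FAM131B-AS2 and MIR4435-2HG for the AP-1 letters. The 10 include LINC00304, MIR4435-2HG, NR2F1-AS1 and LINC00869, which passed the level rule only through Di at 48 h, so that their difference was built into their selection. Among members called lower, 7 of 40 held the antioxidant core and 0 of 40 the AP-1 letters. These matches are letters in a window and not measured binding sites.

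MicroRNAs carried by the 3 microRNA host genes that differed with Di at 48 h are shown. Only the host transcripts were read here, and the levels of the microRNAs were not measured. A single arm of each hairpin is given, and hsa-miR-181a-2-3p, hsa-miR-181b-2-3p and hsa-miR-570-5p, the arms not shown, each have another seed. Capitals mark the seed, bases 2 to 8.

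hsa-miR-181a-5p, from MIR181A2HG: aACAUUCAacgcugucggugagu
hsa-miR-181b-5p, from MIR181A2HG: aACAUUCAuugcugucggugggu
hsa-miR-4435, from MIR4435-2HG: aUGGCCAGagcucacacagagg
hsa-miR-570-3p, from MIR570HG: cGAAAACAgcaauuaccuuugc

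The pair from MIR181A2HG shared the seed ACAUUCA, while miR-4435 and miR-570-3p each had a seed of its own among those shown. The starts of 5 snoRNA host genes are shown because many such genes begin with a C followed by a run of pyrimidines, the signature of transcripts whose translation follows growth signals. Each window runs from 10 bases before the annotated start to 30 bases after it, and capitals mark a C at the start base with the pyrimidines that follow.

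SNHG32: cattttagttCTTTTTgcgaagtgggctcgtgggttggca
SNHG17: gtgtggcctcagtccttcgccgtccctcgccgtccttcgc
SNHG18: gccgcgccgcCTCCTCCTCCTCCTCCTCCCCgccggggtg
SNHG19: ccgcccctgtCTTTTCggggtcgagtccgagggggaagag
SNHG33: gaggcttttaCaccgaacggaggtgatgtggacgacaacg

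A C with at least 4 pyrimidines after it stood at the annotated start of SNHG32, SNHG18 and SNHG19. GAS5, whose window is not printed, had no C at the 1 annotated start used here, and other possible starts of it were not checked. Such a start stood in 4.17% of the members with a promoter and in 4.04% of all promoters.

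In cells without Di, SNHG32, LINC00662 and ZFHX4-AS1 were among the long noncoding RNAs called higher at 48 h than at 12 h. With time in culture 60 of 193 (31.1%) were called higher and 20 (10.4%) lower (limma, adjusted p under 0.05), against 21.9% higher and 31.0% lower among all genes. The median log2 change was 0.17 over the members and -0.06 over all genes. The actin gap, the 3' minus the 5' probe set of that gene and a reading of RNA integrity and labelling, was 1.55 to 1.90 in control at 12 h, 0.95 to 1.40 in Di at 12 h, 1.19 to 1.43 in control at 48 h and 1.35 to 1.49 in Di at 48 h. It did not overlap between control at 12 h and either control at 48 h or Di at 12 h, and its part in these comparisons was not tested. Di at 12 h moved few members: 6 (3.11%) were higher, with LOC100190986, put in the set for that change, among them, and 3 (1.55%) were lower, against 3.9% and 9.78% of all genes. Those lower include LINC00537, which met the level rule through its control arrays at 12 h. Di at 48 h moved many more, 19 (9.84%) higher and 51 (26.4%) lower, against 22.9% and 28.0%. The test of the difference between the Di changes at 48 h and at 12 h called 17 members (8.81%) in the higher and 32 (16.6%) in the lower direction, against 19.8% and 18.5% of all genes. These counts describe a set selected on its level, and nothing particular to long noncoding RNAs is read from them. Of the 193, 133 lay above the floor on all 12 arrays, and among those 12 were called higher and 39 lower with Di at 48 h. Another 5 lay above the floor on the Di arrays of 48 h alone, so that a difference there was built into their selection, and 4 of them are in the count called higher. Without replicate 2 of Di at 48 h the count of members called higher there was 11, and with a floor of 6 the count called lower was 31 of 79 tested.

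**Figure D1:**
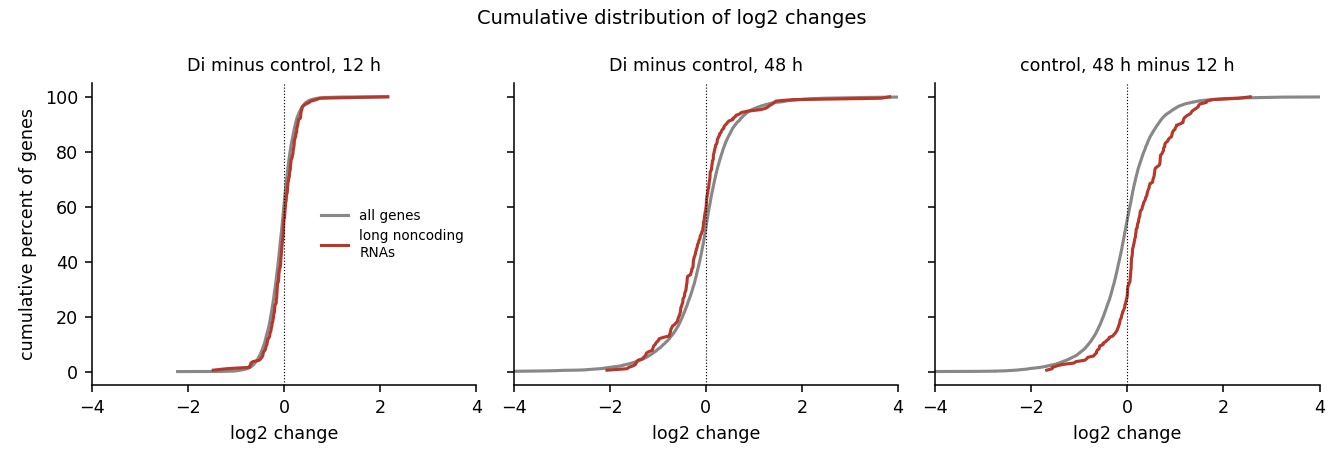
Cumulative percent of genes (vertical axis) against log2 change (horizontal axis) for the 193 long noncoding RNAs (red) and all 10626 genes (grey) in 3 comparisons; the few genes beyond the axis ends are not drawn. The red line lies right of the grey one in the control comparison over time, where the medians were 0.17 and -0.06, and the lines nearly coincide for Di at 12 h.

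The earlier time point shows which of these RNAs Di moved first. The noncoding transcript LOC100190986 read 4.25, 4.03 and 4.28 (log2) in the control arrays and 6.45, 6.60 and 5.98 in the Di arrays. All 3 Di arrays lay above all control arrays, by 2.16 ± 0.235 (SE) or 4.46-fold, a description without a test, since this gene was put in the set for that change. Its other probe set differed by 0.96 in the same direction. At 48 h, which did not bear on its choice, it read 5.89, 5.84 and 5.76 in control and 6.10, 7.16 and 6.89 in Di, a rise of 0.89 ± 0.235 (1.85-fold, adjusted p = 0.00818). The Di change at 48 h was smaller than at 12 h by 1.27 ± 0.332, given without a test for the same reason. METTL9, the measured neighbour of LOC100190986, changed by -0.14 ± 0.0591 at 12 h (adjusted p = 0.142). At 48 h METTL9 changed by -0.98 ± 0.0591 (adjusted p = 1.45e-07).

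The other rises at 12 h were in antisense transcripts, with the exception of LINC03011. CARD8-AS1, which starts head to head with the gene of the inflammasome sensor CARD8, read 4.46, 4.57 and 4.38 in control and 5.24, 5.08 and 5.30 in Di. The groups did not overlap, and it rose by 0.74 ± 0.102 (1.67-fold, adjusted p = 0.00182), while CARD8 itself changed by -0.01 ± 0.182 (adjusted p = 0.972). KRT10-AS1, opposite the keratin gene KRT10, rose from 8.79 ± 0.08 (SD, n = 3) to 9.20 ± 0.07, or by 0.41 ± 0.0853 (adjusted p = 0.0112). MORC2-AS1, opposite the gene of a chromatin ATPase, rose by 0.67 ± 0.187 (adjusted p = 0.0379), EPB41L4A-AS1 by 0.34 ± 0.0977 (adjusted p = 0.0411) and the intergenic LINC03011 by 0.36 ± 0.0929 (adjusted p = 0.0295). These 3 calls were near the threshold: leaving out 1 array ended that of MORC2-AS1 for 6 of the 12 arrays (adjusted p 0.0534 to 0.11), that of LINC03011 for 5 (0.0582 to 0.109) and that of EPB41L4A-AS1 for 9 (0.0523 to 0.136). CARD8-AS1 showed no such loss.

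The 3 long noncoding RNAs that fell at 12 h were also lower with Di at 48 h. LINC00537, an intergenic RNA, read 5.30, 5.30 and 5.59 in control and 4.12, 3.82 and 3.83 in Di at 12 h, close to the floor of 4. It fell at least 2.64-fold (log2 change -1.48 ± 0.129). Its control arrays at 48 h were already at 3.86, 4.01 and 3.64, and Di arrays there lay at 3.15 to 3.45, so that no fold is given at 48 h. Outside control at 12 h only the arrays at 4.12 and 4.01 lay above the floor. LINC00537 thus met the level rule through its control arrays at 12 h, and its fall at 12 h is a description without a test. LINC00472, also intergenic, read 6.45, 6.44 and 6.06 in control and 5.27, 4.76 and 5.29 in Di at 12 h, a fall of 1.21 ± 0.247 in log2 value (2.31-fold, adjusted p = 0.0107). At 48 h it read 5.81, 6.01 and 5.25 in control and 4.04, 4.22 and 4.86 in Di, without overlap, and fell by 1.32 ± 0.247 (2.49-fold, adjusted p = 0.000948). Its measured neighbour OGFRL1 changed by -0.22 ± 0.103 at 12 h (adjusted p = 0.18) and fell by 1.73 ± 0.103 at 48 h (adjusted p = 1.25e-07). OIP5-AS1, the conserved RNA also called cyrano, known for its pairing with miR-7, fell by 0.36 ± 0.0613 at 12 h (adjusted p = 0.00526) and by 0.32 ± 0.0613 at 48 h (adjusted p = 0.0011). The mean of its 3 probe sets gave -0.06 at 48 h (adjusted p = 0.644), which ends that call.

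**Figure D2:**
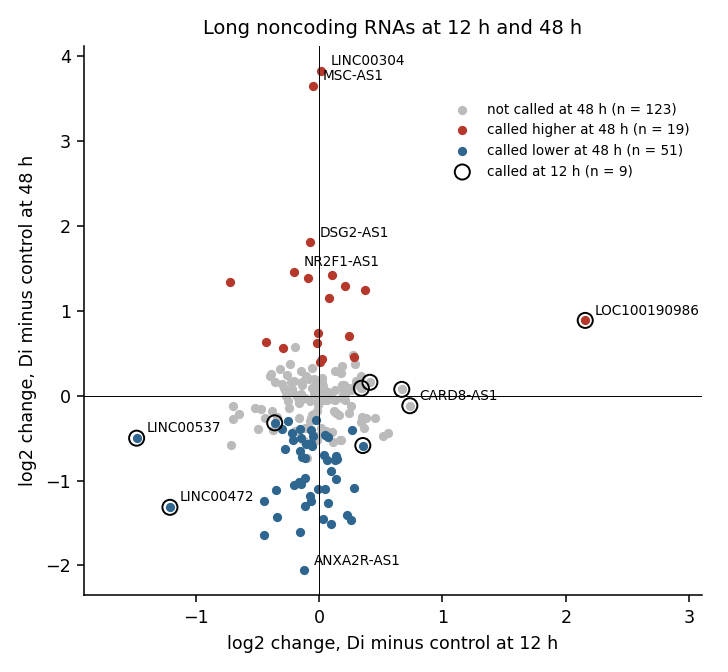
Log2 change with Di at 48 h (vertical axis) against that at 12 h (horizontal axis) for the 193 long noncoding RNAs, each point the difference of the means of 3 arrays per group. Most of the 70 members called at 48 h lie near 0 at 12 h, and LOC100190986, LINC00537 and LINC00472 stand apart along the 12 h axis.

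The largest changes came at 48 h, in RNAs that were not called at 12 h. LINC00304, an intergenic gene, read 2.20 to 2.34 on all 9 other arrays and 5.53, 6.29 and 6.48 in Di at 48 h. It passed the level rule only through those 3 arrays, so that a difference was built into its selection and no test is given. Against the floor it was at least 4.28-fold higher (log2 change 3.83 ± 0.185), while its measured neighbour ACSF3, of mitochondrial fatty acid metabolism, changed by 0.09 ± 0.102 (adjusted p = 0.521). MSC-AS1, opposite the gene of the repressor musculin, read 4.33, 4.62 and 4.37 in control and 8.14, 8.23 and 7.89 in Di at 48 h. This was a rise of 3.65 ± 0.112 or 12.6-fold (adjusted p = 8.01e-10), against -0.05 ± 0.112 at 12 h (adjusted p = 0.822). Musculin's own gene, MSC, did not pass the level rule.

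DSG2-AS1, named for the desmosomal cadherin gene DSG2, read 4.61, 5.29 and 3.93 in control and 6.17, 6.59 and 6.48 in Di at 48 h. The control arrays spread widely, and all Di arrays lay above them. The rise was 1.81 ± 0.37 (adjusted p = 0.00173), and DSG2 rose beside it from 10.82 ± 0.0684 (SD, n = 3) to 11.71 ± 0.0605, by 0.89 ± 0.0787 (adjusted p = 3.09e-06). NR2F1-AS1, opposite the gene of an orphan nuclear receptor, read 3.49, 2.96 and 3.49 in control and 4.23, 5.41 and 4.68 in Di, at least 1.71-fold higher (1.46 ± 0.259). It too passed only through the Di arrays at 48 h, so that this is a description. LINC02693 read 4.77, 4.96 and 4.35 in control and 6.00, 6.25 and 6.09 in Di, and rose by 1.42 ± 0.155 (2.68-fold, adjusted p = 1.64e-05). Its other probe set rose by less, and the mean of both gave 0.95.

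**Figure D3:**
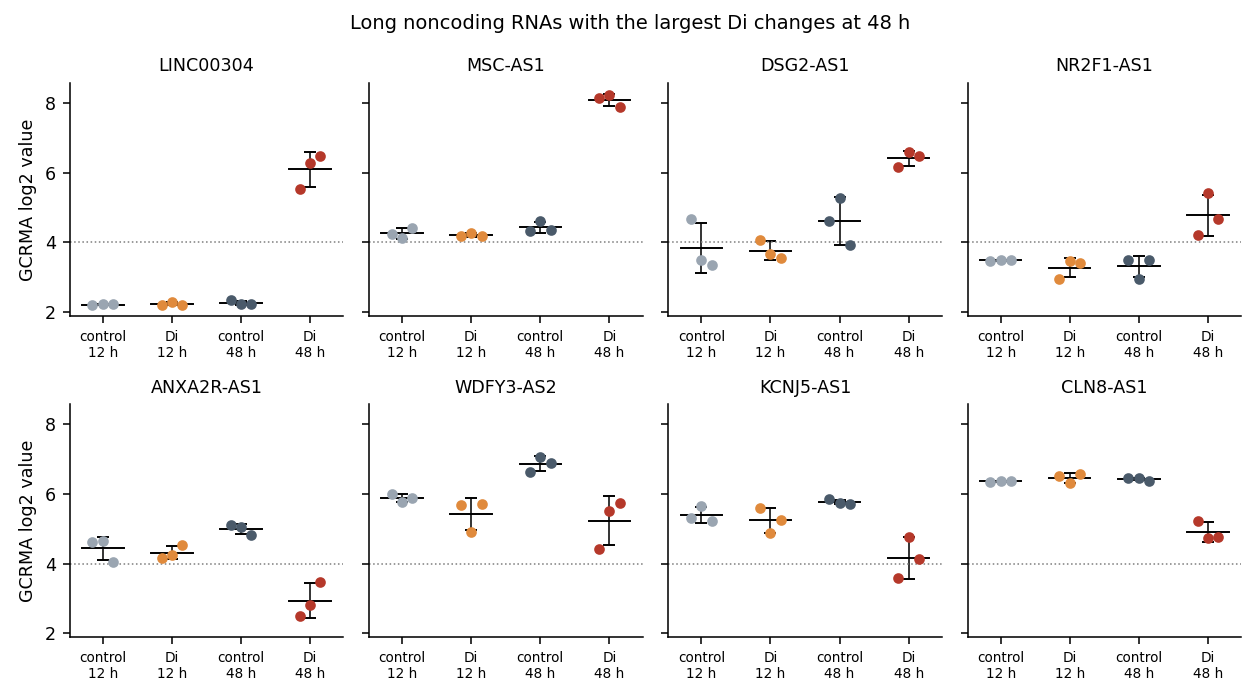
GCRMA log2 value of each array (points), group mean (line) and SD (bar, n = 3) for the 4 long noncoding RNAs with the largest rises and the 4 with the largest falls with Di at 48 h among those whose groups did not overlap; the dotted line is the floor of 4. LINC00304 and MSC-AS1 were high on the 3 Di arrays at 48 h alone, while ANXA2R-AS1, WDFY3-AS2, KCNJ5-AS1 and CLN8-AS1 were lowest there.

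The 5 further intergenic RNAs that were higher with Di at 48 h and are given next were chosen after their values were seen. LINC00205 read 7.27, 7.36 and 7.20 in control and 8.60, 8.41 and 8.71 in Di, and rose by 1.30 ± 0.103 (2.46-fold, adjusted p = 1.34e-06). All 5 of its probe sets were called higher at 48 h, by 0.35 to 1.33, and its neighbour POFUT2, an O-fucosyltransferase gene, rose by 0.76 ± 0.0646 (adjusted p = 2.22e-06). The other measured neighbour of LINC00205, COL18A1, changed by 0.12 ± 0.107 (adjusted p = 0.381). Neighbours are given for some RNAs only, and no link between neighbours is read from them. LINC00973 rose by 1.25 ± 0.268 (adjusted p = 0.00233) from a control level of 5.30 ± 0.37 (SD) that was itself lower than the 6.87 ± 0.37 of control at 12 h (adjusted p = 0.000507). LINC00869 was at least 1.58-fold higher (1.15 ± 0.0954), from control arrays of 3.50 to 3.53, a description without a test, since it passed the level rule only through Di at 48 h. LINC01128 rose by 0.71 ± 0.077 (adjusted p = 1.62e-05) and LINC01234, the gene with the antioxidant-type match shown above, by 0.62 ± 0.101 (adjusted p = 0.000376).

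The falls at 48 h were more numerous and were spread over antisense and intergenic genes, 31 of 122 (25.4%) and 17 of 58 (29.3%), near the 28.0% of all genes called lower. ANXA2R-AS1 read 5.11, 5.04 and 4.83 in control and 2.51, 2.81 and 3.49 in Di, and fell at least 1.99-fold (log2 change -2.06 ± 0.232, adjusted p = 2.13e-05). WDFY3-AS2, named for the autophagy adaptor gene WDFY3, read 6.64, 7.06 and 6.90 in control and 4.43, 5.51 and 5.75 in Di. It fell by 1.64 ± 0.309 in log2 value (3.12-fold, adjusted p = 0.000982), while WDFY3 changed by -0.14 ± 0.0631 (adjusted p = 0.0864). KCNJ5-AS1, named for a potassium channel gene, read 5.84, 5.74 and 5.72 in control and 3.58, 4.77 and 4.15 in Di (-1.60 ± 0.262, adjusted p = 0.000362). CLN8-AS1, opposite the gene of an endoplasmic reticulum protein, held a narrow range of 6.31 to 6.57 on the 9 other arrays and read 5.24, 4.73 and 4.77 in Di at 48 h (-1.52 ± 0.122, 2.86-fold, adjusted p = 1.46e-06).

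LINC02274 was the brightest of the RNAs with large falls. It read 10.65, 10.63 and 10.60 in control and 8.86, 9.26 and 9.36 in Di at 48 h, a fall of 1.46 ± 0.155 in log2 value (2.76-fold, adjusted p = 1.31e-05). Both measured neighbours were lower as well, PTGR2, a prostaglandin reductase gene, by -0.74 ± 0.187 (adjusted p = 0.00617) and MIDEAS, of a histone deacetylase complex, by -0.58 ± 0.176 (adjusted p = 0.0167). HOXA-AS2, from the HOXA homeobox cluster, read 5.23, 5.26 and 5.51 in control and 3.93, 3.92 and 3.80 in Di, at least 2.52-fold lower (-1.45 ± 0.0947, adjusted p = 2.66e-07). LINC01003 read 6.36, 6.45 and 6.34 in control and 4.59, 4.75 and 5.52 in Di (-1.43 ± 0.364, adjusted p = 0.00662). Its measured neighbours KMT2C and XRCC2 changed by 0.12 ± 0.114 and -0.09 ± 0.179 (adjusted p = 0.436 and 0.724). For LINC01003 and WDFY3-AS2 the test of a difference between the Di changes at 48 h and 12 h gave adjusted p = 0.121 and 0.0509.

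Of the 6 snoRNA host genes in the set, 4 rose with time in cells without Di, and 2 fell with Di at 48 h. Further SNHG genes were read only by probe sets that list several genes, so the 6 are not all hosts expressed here. Over all genes, 21.9% were higher with time and 28.0% lower with Di at 48 h, so that the share of hosts lower with Di is near that of genes at large. Without Di, SNHG32 read 10.76, 10.68 and 10.62 at 12 h and 12.16, 12.12 and 12.31 at 48 h, a rise of 1.51 ± 0.0803 (2.85-fold, adjusted p = 7.37e-08). SNHG17 read 7.74, 7.81 and 7.76 and then 9.11, 9.08 and 9.11 (1.33 ± 0.104, 2.51-fold, adjusted p = 1.46e-06). SNHG33 rose by 0.94 ± 0.142 (adjusted p = 0.00021) and SNHG18 by 0.93 ± 0.254 (adjusted p = 0.00975). SNHG19 changed by -0.06 ± 0.106 (adjusted p = 0.67) and GAS5, a growth arrest transcript rich in snoRNAs, by 0.11 ± 0.12 (adjusted p = 0.485). GAS5 was read by 1 probe set, whose highest array value of 5.15 lay near the floor of 4. Another 4 kept probe sets of GAS5 list several genes and were not used, which limits what its small changes can show. With Di at 12 h 0 of the 6 were called (limma, with 3 at an unadjusted p under 0.05), and their changes ran from -0.28 to 0.26. With Di at 48 h SNHG19 fell from 8.25 ± 0.04 (SD, n = 3) to 7.62 ± 0.19 (-0.63 ± 0.106, adjusted p = 0.000443), on a probe set whose name marks possible cross-hybridisation. SNHG33 fell by 0.41 ± 0.142 in log2 value (adjusted p = 0.0322), and this call ended without Di replicate 1 (adjusted p = 0.123), control replicate 2 (0.0681) or control replicate 3 (0.101) of that time. B3GNT5, the measured neighbour of SNHG33, rose by 1.82 ± 0.1435 at 48 h (adjusted p = 1.26e-06). SNHG17 changed by -0.18 ± 0.104 (adjusted p = 0.186), SNHG18 by -0.41 ± 0.254 (0.205), SNHG32 by 0.02 ± 0.0803 (0.861) and GAS5 by 0.09 ± 0.12 (0.584). Of the 13 measured genes of the snoRNP core and its assembly, 0 were called with Di at 12 h (2 at an unadjusted p under 0.05), and 2 higher and 5 lower at 48 h, against 22.9% and 28.0% of all genes, with a median change of -0.01 against -0.02. Those lower included SNU13, which binds the snoRNA kink-turn (-0.56 ± 0.14, adjusted p = 0.00575), and the methyltransferase FBL (-0.38 ± 0.0771, adjusted p = 0.0017).

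**Figure D4:**
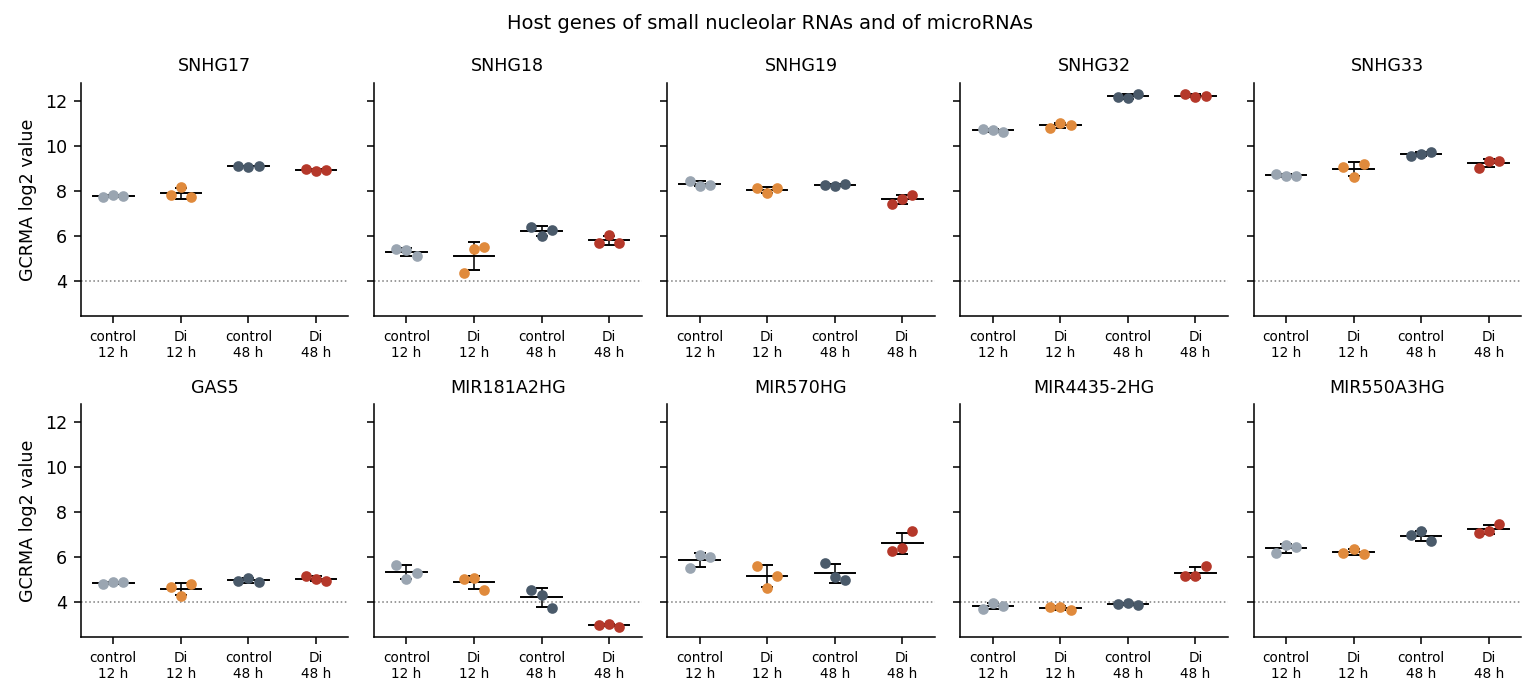
GCRMA log2 value of each array (points), group mean (line) and SD (bar, n = 3) for the 6 snoRNA host genes (SNHG genes and GAS5) and 4 of the 5 microRNA host genes; the dotted line is the floor of 4. SNHG17, SNHG18, SNHG32 and SNHG33 lie higher at 48 h than at 12 h without Di, whereas MIR181A2HG lies lowest and MIR4435-2HG and MIR570HG highest in Di at 48 h.

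Of the 5 microRNA host genes, MIR570HG rose and MIR181A2HG fell with Di at 48 h, MIR4435-2HG was higher there and entered the set through that difference, and 0 were called at 12 h (limma, with 2 at an unadjusted p under 0.05). MIR4435-2HG, known in myeloid cells for lowering transcription of the pro-apoptotic neighbour BCL2L11, read 3.90, 3.95 and 3.89 in control and 5.16, 5.16 and 5.59 in Di at 48 h. It was at least 2.47-fold higher (1.39 ± 0.114), with no test, since it passed the level rule only through those Di arrays. BCL2L11 itself fell by 0.27 ± 0.071 in log2 value at 12 h (adjusted p = 0.0285) and rose by 0.26 ± 0.071 at 48 h (adjusted p = 0.00978). MIR570HG read 5.76, 5.11 and 4.97 in control and 6.27, 6.42 and 7.15 in Di at 48 h, a rise of 1.34 ± 0.303 (2.52-fold, adjusted p = 0.0033). At 12 h its change was -0.72 ± 0.303 (adjusted p = 0.136) with overlapping groups, and the changes at both times differed by 2.06 ± 0.429 (adjusted p = 0.00309).

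MIR181A2HG, the host of the miR-181 pair with the shared seed, was lower with time and with Di. It read 5.65, 5.02 and 5.30 in control at 12 h, 4.56, 4.32 and 3.76 in control at 48 h and 3.00, 3.01 and 2.91 in Di at 48 h. The Di fall was at least 1.16-fold against the floor (log2 change -1.24 ± 0.216, adjusted p = 0.000578). MIR550A3HG changed by 0.29 ± 0.142 with Di at 48 h (adjusted p = 0.116) and MIR1915HG by 0.00 ± 0.0748 (adjusted p = 0.975). Of 9 measured microRNA processing genes, 3 rose and 2 fell at 48 h, about the share called among all genes (50.9%), with a median change of 0.02, and 0 were called at 12 h (3 at an unadjusted p under 0.05). AGO2, the slicing Argonaute, rose by 0.85 ± 0.136 (adjusted p = 0.00029), and TARBP2, the partner of Dicer, fell by 0.38 ± 0.0989 in log2 value (adjusted p = 0.00709), a call that quantile normalisation ended (adjusted p = 0.0762). AGO3 rose by 0.74 ± 0.146 and TNRC6A, a silencing scaffold, by 0.51 ± 0.0664, but the means of all their probe sets gave 0.09 and 0.21.

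MALAT1, an abundant RNA of nuclear speckles, was measured by 12 probe sets. The brightest read 13.07, 13.12 and 13.51 in control and 13.10, 12.27 and 12.24 in Di at 12 h, so that replicate 1 of Di lay among the controls. The change of -0.70 ± 0.224 was not called (adjusted p = 0.0624), and without that replicate it was -0.98 (adjusted p = 0.0101). Over the 12 probe sets the change at 12 h ran from -0.73 to 1.20, with 9 negative, 0 called lower and 1 called higher. At 48 h all 12 were negative, from -0.79 to -0.15, and 3 were called. Without Di, 6 were called higher at 48 h than at 12 h, with a range of 0.10 to 2.53 over the 12. All 6 have the suffix _x_at, which marks possible cross-hybridisation, and the set called higher with Di at 12 h is among them. The probe sets without that suffix changed by 0.10 to 0.73 with time, and none of them was called. The part of the actin gap given above in the spread between MALAT1 probe sets was not tested.

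NEAT1 and H19 had no probe set with that symbol alone, and the 10 probe sets of MEG3 stayed under the level rule, with a highest array value of 3.96. Probe sets that list several genes were not used, which left out 74 kept probe sets naming a gene of this kind, 7 of them for NEAT1. They name 55 genes of this kind, and 46 of these are not members. Of 13 measured proteins of paraspeckles, the bodies that NEAT1 builds, 0 rose and 2 fell at 12 h, and 2 rose and 5 fell at 48 h, a total near the 50.9% of all genes called there, with medians of -0.09 and -0.19 against -0.06 and -0.02 over all genes. NONO, a core paraspeckle protein, fell by 0.41 ± 0.0899 in log2 value at 48 h (adjusted p = 0.00264) and HNRNPH3 by 0.55 ± 0.0607 (adjusted p = 1.77e-05). PSPC1 fell by 0.69 ± 0.106 and NUDT21 by 0.52 ± 0.0696 at 48 h, while the means of all their probe sets gave -0.18 and -0.09 and were not called. At 12 h NUDT21 fell by 0.29 ± 0.0696 (adjusted p = 0.0203), but by the mean of its probe sets it changed by -0.01 (adjusted p = 0.91), and the chromatin remodeller SMARCA4 fell by 0.39 ± 0.0968 (adjusted p = 0.0244). Leaving out control replicate 2 or 3 of that time ended both calls, and leaving out Di replicate 2 or 3 also ended that of SMARCA4.

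Some nuclear RNA decay genes rose and others fell, at 48 h in about the share of genes at large. Of 15 measured genes of the nuclear exosome and its adaptors, EXOSC10, the exosome's nuclear exonuclease, was the 1 called at 12 h, with a fall of 0.67 ± 0.0732 in log2 value (adjusted p = 0.000706). At 48 h 5 rose and 2 fell, against 22.9% and 28.0% of all genes, with a median change of 0.08. EXOSC3, a cap subunit, rose by 0.56 ± 0.139 (adjusted p = 0.00561), and EXOSC7 rose by 0.56 ± 0.116 (adjusted p = 0.00184) but by 0.23 as the mean of all its probe sets. Of 8 measured nonsense-mediated decay genes, 0 were called at 12 h (3 at an unadjusted p under 0.05). At 48 h the median change was 0.06, RBM8A, of the exon junction complex, fell by 0.49 ± 0.0677 in log2 value (adjusted p = 0.000111) and SMG8 rose by 0.38 ± 0.109 (adjusted p = 0.0121). Without control replicate 1 of 48 h the adjusted p of SMG8 was 0.0502. None of the 4 imprinted genes beside H19 and MEG3 passed the level rule.

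An antisense RNA and the gene it is named for had changes of the same sign in about as many pairs as not. A measured partner was found for 84 of the 123 antisense and intronic genes, and the changes had the same sign in 39 pairs at 12 h and 47 pairs at 48 h. Over the 84 pairs Pearson's r was 0.005 at 12 h and 0.106 at 48 h, a description across genes that share arrays. At 48 h the RNA was called in 22 of the 84 pairs and the partner in 52, where 50.9% of all genes were called. Both were called in 11 pairs, and no link within pairs is read from these counts. Of the 11, 9 were in the same direction, as for DSG2-AS1 and for OIP5-AS1, whose partner OIP5 fell by 0.67 ± 0.141 in log2 value (adjusted p = 0.00196). The opposite pairs were CLN8-AS1, where CLN8 rose by 0.86 ± 0.149 (adjusted p = 0.000528), and TRAM2-AS1. TRAM2-AS1, named because its pair was 1 of 2, read 5.17, 5.25 and 5.72 in control and 4.32, 4.14 and 4.34 in Di, a fall of 1.11 ± 0.166, while TRAM2, of protein translocation into the endoplasmic reticulum, rose by 0.70 ± 0.0869 (adjusted p = 4.66e-05). RefSeq placed 33 of 58 pairs with both starts listed head to head within 1000 bases, and 18 of those 33 had the same sign at 48 h. Which strand each probe set reads was not checked.

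**Figure D5:**
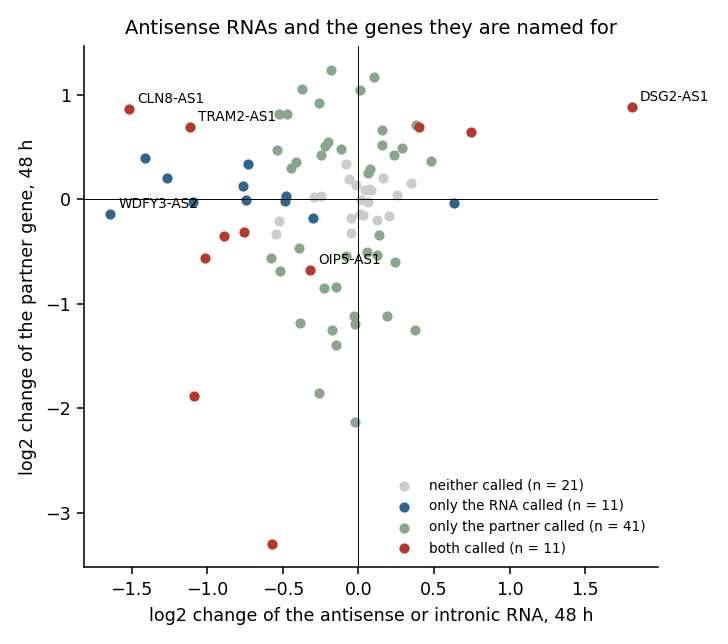
Log2 change with Di at 48 h of the partner gene (vertical axis) against that of the antisense or intronic RNA (horizontal axis) for the 84 pairs with both measured, coloured by which of them was called. The 11 red points, both called, include CLN8-AS1 and TRAM2-AS1 in the upper left, where the RNA is lower and the partner higher.

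Without Di, the largest rise with time was in LINC00662. This intergenic RNA read 5.07, 5.43 and 5.51 in control at 12 h and 7.90, 7.77 and 8.01 at 48 h, a rise of 2.56 ± 0.157 (5.89-fold, adjusted p = 2.18e-07), which was 1.40 as the mean of its 2 probe sets. ZFHX4-AS1 rose from 6.36 ± 0.23 (SD, n = 3) to 8.69 ± 0.13, by 2.32 ± 0.15 (5.0-fold, adjusted p = 3.1e-07), whereas ZFHX4, a zinc finger and homeobox gene, changed by -0.25 ± 0.1 (adjusted p = 0.0525). EPB41L4A-AS1 read 8.97, 8.78 and 8.63 at 12 h and 10.56, 10.50 and 10.63 at 48 h, a rise of 1.77 ± 0.0977 (3.42-fold, adjusted p = 9.45e-08). LINC00663 rose by 1.65 ± 0.21 (3.13-fold, adjusted p = 5.98e-05). The control arrays of LOC100190986 were higher at 48 h by 1.64 ± 0.235, with no test, since its 12 h values bore on its choice. LINC02532 fell from 6.64 ± 0.58 to 4.96 ± 0.63 (-1.68 ± 0.401, adjusted p = 0.00439).

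The time comparison and both Di comparisons share control arrays, so their values are set side by side only. Of the 60 members higher with time, 22 were called lower, 5 higher and 33 neither with Di at 48 h. Of the 20 lower with time, 9 were called lower, 2 higher and 9 neither. Among all genes, 22.9% were higher and 28.0% lower with Di at 48 h. The matching split of all genes that moved with time was not counted, so nothing particular to the members is read from theirs. LINC00662, higher with time, was also called higher with Di at 48 h, by 0.43 ± 0.157 (adjusted p = 0.0389), but leaving out any Di array or control replicate 1 or 2 of that time ended the call (adjusted p 0.0604 to 0.12). As the mean of its 2 probe sets that rise was 0.84, a description without a test. The second probe set had means of 2.87 to 3.12 in the other groups and 4.36 in Di at 48 h, so that it passed the level rule through that group. ZFHX4-AS1 changed by 0.38 ± 0.15 (adjusted p = 0.0557), LINC00663 by -0.13 ± 0.21 (0.655) and LINC02532 by -0.73 ± 0.401 (0.154). EPB41L4A-AS1 changed by 0.09 ± 0.0977 (adjusted p = 0.494), and the mean of its 2 probe sets gave -0.28 (adjusted p = 0.00965), the opposite sign.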

How the data were processed

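The authors deposited GCRMA values on a log2 scale for 12 Affymetrix arrays, per the submitters' processing notes, which name no version. They were used as deposited. Array medians lay at 2.969 to 3.062, arrays of 1 group correlated at 0.986 to 0.996 over the kept probe sets with 1 gene, and no array duplicated another. Precision is limited by the number of arrays.

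Of 54675 probe sets, 62 controls were left out, 41097 named 1 gene, 1801 several and 11777 none. The level rule kept 21715 probe sets, 18957 with 1 gene, and the brightest kept probe set on average stood for its gene (suffix _x_at only where no other was kept). Of the 193 members, 37 had more than 1 kept probe set, and 190 carry a long noncoding RNA biotype in the RefSeq gene table, whose assembly is GRCh38.p14 and which also gave neighbouring genes.

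A group-means model over all 12 arrays was fitted by limma 3.58.1 (R 4.3.3, lmFit and eBayes, two-sided), adjusted by Benjamini-Hochberg over 10626 genes and called under 0.05. The same fit was tested on simulated data. Errors of log2 changes are SE of that fit. Its p-values set each difference of group means against the spread between replicates, shared over the 4 groups and moderated across genes. Where a group mean lay under 4, a fold is a bound against 4. Replicate numbers did not pair the samples. Named genes were the listed RNAs, all SNHG and microRNA host genes among the members, the 12 largest called changes without overlap per Di comparison, 5 for time, their partners and at most 4 genes a list, plus those said to be chosen later. The members and lists were chosen with earlier results of these data known. Figures used matplotlib 3.10.9 in Python 3.11.15. Alternatives were other filters, moderation, scaling, probe choice, samples in the fit, a replicate block and leaving out each array.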

Additional observations from a re-analysis of the deposited data

Results flagged for a closer look

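The Di change differed between 48 h and 12 h, by limma's test of the difference itself (adjusted p under 0.05), for the named long noncoding RNAs that follow, each given as the log2 change at 48 h minus that at 12 h. It was higher at 48 h for MSC-AS1 (3.70), MIR570HG (2.06), DSG2-AS1 (1.88), LINC02693 (1.31), LINC00205 (1.09), LINC01234 (0.63), ZFHX4-AS1 (0.61) and LINC01128 (0.46). It was lower at 48 h for ANXA2R-AS1 (-1.94), LINC02274 (-1.73), CLN8-AS1 (-1.61), HOXA-AS2 (-1.48), KCNJ5-AS1 (-1.45), LINC03011 (-0.94) and SNHG33 (-0.67), and for CARD8-AS1 (-0.85), whose rise was larger at 12 h. For the RNAs given next the choice of members used 1 of the values compared, so that the difference is given without a test. It was 3.81 for LINC00304, 1.66 for NR2F1-AS1, 1.48 for MIR4435-2HG and 1.06 for LINC00869, which entered the set through their Di arrays at 48 h, and -1.27 for LOC100190986, put in it for its change at 12 h. It was 0.98 for LINC00537, which met the level rule through its control arrays at 12 h. The control arrays of LINC00537 at 48 h were already near the floor of 4, which limits the fall that could be read there. LINC03011 was called higher at 12 h and lower at 48 h (-0.59 ± 0.0929, adjusted p = 0.000281), the 1 member with opposite calls. The groups of 3 arrays are too small for a check of single outlying arrays.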

How the results depend on the processing

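Of 90 called results for named genes, 69 kept their direction and their call under all alternatives other than leaving out an array, and 74 when 1 array at a time was left out. The 90 include differences given above without a test, such as that of LINC00304 with Di at 48 h. Many named genes were also chosen for large called changes, so these counts describe the named genes only. Of 92 that were not called, 74 and 79 stayed so. EPB41L4A-AS1 with Di at 48 h reversed to -0.28 as the mean of all probe sets (main value 0.09), and its second probe set was lower there. Trend and robust moderation called 5 members lower at 12 h in place of 3. With a floor of 6, which tested 79 members, 31 in place of 51 were called lower with Di at 48 h, 10 in place of 17 and 19 in place of 32 for the higher and lower difference between times, and 9 in place of 20 lower with time. Without a filter 21 of 32 were called for the lower difference. Leaving out 1 array gave 3 to 7 members higher and 3 to 7 lower at 12 h, 11 to 23 higher and 45 to 56 lower with Di at 48 h, 10 to 21 and 24 to 41 for the difference, and 52 to 65 higher and 14 to 24 lower with time. The 12 h count of 6 higher was 3 without Di replicate 1 or 3 or control replicate 2 or 3, and that of 3 lower was 7 without replicate 1 of Di at 12 h or at 48 h and 5 without replicate 2 of Di at 12 h. The cause was not tested. Same-numbered replicates deviated together with correlations of -0.23 to 0.15 at 12 h and -0.26 to 0.10 at 48 h, so the numbers do not pair the samples. With the replicate number as a block, 4 members were called higher and 4 lower at 12 h, 20 and 48 at 48 h, 16 and 30 for the difference and 58 and 17 with time. Symbols as the array gives them led to the same 193 members.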
